A study of Homo sapiens with 12 samples.

Results

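MYC and 9 genes of ribosome biogenesis (NOP16, NOP56, FBL, NCL, NPM1, DKC1, RRS1, POLR1B and BOP1) were read from the single-cell count tables of 3 head and neck squamous cell carcinoma (HNSCC) cell lines. The 10 genes were taken by name, with earlier results of these data known, out of 33514 gene symbols in the tables. All 10 were among the 17897 genes with enough counts to be tested. The lines SCC1, SCC6 and SCC25 are established lines that respond to cetuximab, a therapeutic antibody against the receptor EGFR. Each line received either 100 nM cetuximab or the vehicle, phosphate-buffered saline (PBS), for 5 days, and droplet-based single-cell RNA sequencing was then performed on 2 replicates of each of the 6 groups. No line carried an engineered change, each line stands for 1 tumour only, and nothing states that the replicates were separate cultures, so the p-values measure the spread between these samples, which may be technical.

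MYC is a transcription factor that pairs with MAX, binds E-box sequences and raises the output of genes for growth, those for making ribosomes in particular. In the nucleolus, RNA polymerase I copies the ribosomal DNA, small nucleolar ribonucleoproteins (snoRNPs) modify the new RNA, and assembly factors fold and cut it into the 2 subunits. EGFR signalling through the MAPK pathway is known to sustain MYC in epithelial cells, and many carcinomas carry high levels of MYC and large nucleoli.

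The promoters of FBL and NCL are shown because these were the 2 genes of the set that edgeR called lower across the lines with the replicate number as a block (FBL also without it, NCL only with it). Each is the run of 250 bases just before the start of the gene (RefSeq, build GRCh38.p14), read 5′ to 3′ on the strand of the gene. Neither run overlaps an annotated gene. Capitals mark the letters CACGCG or CGCGTG, a variant of the MYC E-box read on both strands, and would also mark the canonical E-box CACGTG. The NCL run holds neither.
FBL, chr19:39846380-39846629, minus strand: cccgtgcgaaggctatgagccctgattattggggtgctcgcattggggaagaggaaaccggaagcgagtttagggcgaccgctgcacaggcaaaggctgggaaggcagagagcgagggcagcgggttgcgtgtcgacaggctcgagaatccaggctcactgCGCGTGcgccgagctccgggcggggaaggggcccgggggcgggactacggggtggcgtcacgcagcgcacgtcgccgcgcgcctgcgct
NCL, chr2:231464485-231464734, minus strand: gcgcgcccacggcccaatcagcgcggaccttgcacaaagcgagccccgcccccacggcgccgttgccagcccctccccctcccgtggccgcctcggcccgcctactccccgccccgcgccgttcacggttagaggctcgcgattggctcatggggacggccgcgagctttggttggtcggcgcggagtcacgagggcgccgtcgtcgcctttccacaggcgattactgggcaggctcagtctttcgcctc
Promoter windows were matched for 7 of the 10 genes, all but MYC, RRS1 and BOP1. The canonical CACGTG was found in the 250 bases before the start of 0 of the 7 genes, and of 10.7% of the 12091 tested genes that have a window. The variant, searched after the canonical letters gave no match, was found for 2 of the 7 genes, FBL and NPM1, and for 18.3% of the tested genes. A gene counted if any of its windows held a match. In FBL it began 89 bases before the start. NPM1 had 2 windows, and its matches lay in the one that falls inside the annotated gene. The NPM1 window just before the annotated gene held none. These matches describe letters in a short window and are no evidence of binding.

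The tables held 23914 cells, 961 to 2854 per sample, and 57057402 to 112170073 unique molecular identifiers (UMIs, 1 for each captured transcript) per sample. The median ran from 24078.5 UMIs per cell in cetuximab replicate 1 of SCC6 to 54864 in cetuximab replicate 1 of SCC1. Barcodes shared between samples numbered 1 to 13. Levels are given in CPM, the counts scaled to the library total after that total was adjusted by TMM normalisation. Of the squamous markers, KRT5 and KRT14 were near absent in SCC6 (1.16 and 1.62, and 0.931 and 0.424 CPM, with PBS). KRT17 stood there at 922 and 492 CPM with PBS. The defining markers of leukocytes and endothelium were near 0, with 15 UMIs of PTPRC and 41 of PECAM1 in all. The summed level of 5 leukocyte markers was 10.7 to 13.6 CPM with PBS and 8.36 to 10.8 with cetuximab in SCC1. Most of it was CD14, at 10.7 and 13.5 CPM with PBS and 10.7 and 8.23 with cetuximab. With PBS the sum was 1.60 to 2.78 CPM in SCC6 and 2.93 to 5.88 in SCC25. TP63 was found in all 12 samples (6.81 to 71.9 CPM). The summed level of 7 fibroblast markers was 7.23 to 7.52 CPM with PBS and 15.4 to 16.6 with cetuximab in SCC1, 1.13 to 3.33 and 23.0 to 27.3 in SCC6, and 19.9 to 41.2 and 44.6 to 83.0 in SCC25. Of their defining genes PDGFRB was at 0 in 2 samples and DCN in 1. LUM was found in all 12 samples (0.0105 to 58.0 CPM), with 11410 UMIs in all. The part of these markers in the results was not tested.

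In untreated cells the lines differed most in FBL, MYC, RRS1, POLR1B and DKC1. UMIs were summed over the cells of each sample and normalised to CPM, and log2 fold changes were tested with the quasi-likelihood test of edgeR, with p-values adjusted over all 17897 genes. FBL, the methyltransferase of the box C/D snoRNPs, stood at 342 and 358 CPM in SCC6, 143 and 159 in SCC25 and 74.6 and 107 in SCC1. The 3 lines did not overlap in FBL, and each step was called: log2 1.95 ± 0.26 (SE) for SCC6 over SCC1 (adjusted p = 0.000259), 0.74 ± 0.25 for SCC25 over SCC1 (adjusted p = 0.0402) and −1.21 ± 0.26 for SCC25 against SCC6 (adjusted p = 0.00402). MYC stood at 482 and 242 CPM in SCC6, 141 and 202 in SCC25 and 119 and 149 in SCC1. It was higher in SCC6 than in SCC1 by 1.44 ± 0.41 on the log2 scale (adjusted p = 0.0183), whereas SCC25 was not told apart from SCC1 (0.36 ± 0.40, adjusted p = 0.514) or from SCC6 by edgeR (−1.08 ± 0.41, adjusted p = 0.0565). DESeq2 called MYC lower in SCC25 than in SCC6 (adjusted p = 0.0370), and the adjusted p passed the threshold in 3 of 11 settings, over a range from 0.00896 to 0.419.

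RRS1, a factor that brings the 5S particle into the large subunit, was lowest in SCC25. It stood there at 26.6 and 29.4 CPM, against 42.3 and 52.9 in SCC6 and 48.8 and 54.8 in SCC1, and the level in SCC25 was below that in SCC1 by a log2 difference of −0.89 ± 0.23 (adjusted p = 0.0114) and below that in SCC6 by −0.76 ± 0.23 (adjusted p = 0.0225). POLR1B, the second largest subunit of RNA polymerase I, stood at 3.99 and 3.86 CPM in SCC25 and 6.64 and 6.96 in SCC6 (log2 −0.79 ± 0.28 for SCC25 against SCC6, adjusted p = 0.0424), and no line was told apart from SCC1, with 5.60 and 6.95 CPM. DKC1, the pseudouridine synthase of the box H/ACA snoRNPs, was lower in SCC6, with 51.4 and 62.3 CPM, than in SCC1, with 82.5 and 99.1 CPM (log2 −0.68 ± 0.22, adjusted p = 0.0340). NOP16, NOP56, NCL, NPM1 and BOP1 were called in none of the 3 comparisons by edgeR, with log2 differences from −0.67 (NPM1, SCC25 against SCC6, adjusted p = 0.105) to 0.54 (NOP56, SCC25 against SCC6, adjusted p = 0.270). In all, 3 of the 10 genes were called for SCC6 against SCC1, 2 for SCC25 against SCC1 and 3 for SCC25 against SCC6, where 40.2%, 40.8% and 40.9% of all genes were called. At 10 genes these counts are near the shares of all genes, and nothing about the set is read from them. Leaving out 1 untreated sample kept the FBL calls of SCC6 against both other lines, and each of the other calls was lost with at least 1 sample left out. MYC in SCC6 against SCC1 lost its call without PBS replicate 1 of SCC6 (log2 0.86, adjusted p = 0.168) and without either PBS replicate of SCC1 (adjusted p = 0.115 and 0.0591).

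**Figure D1:**
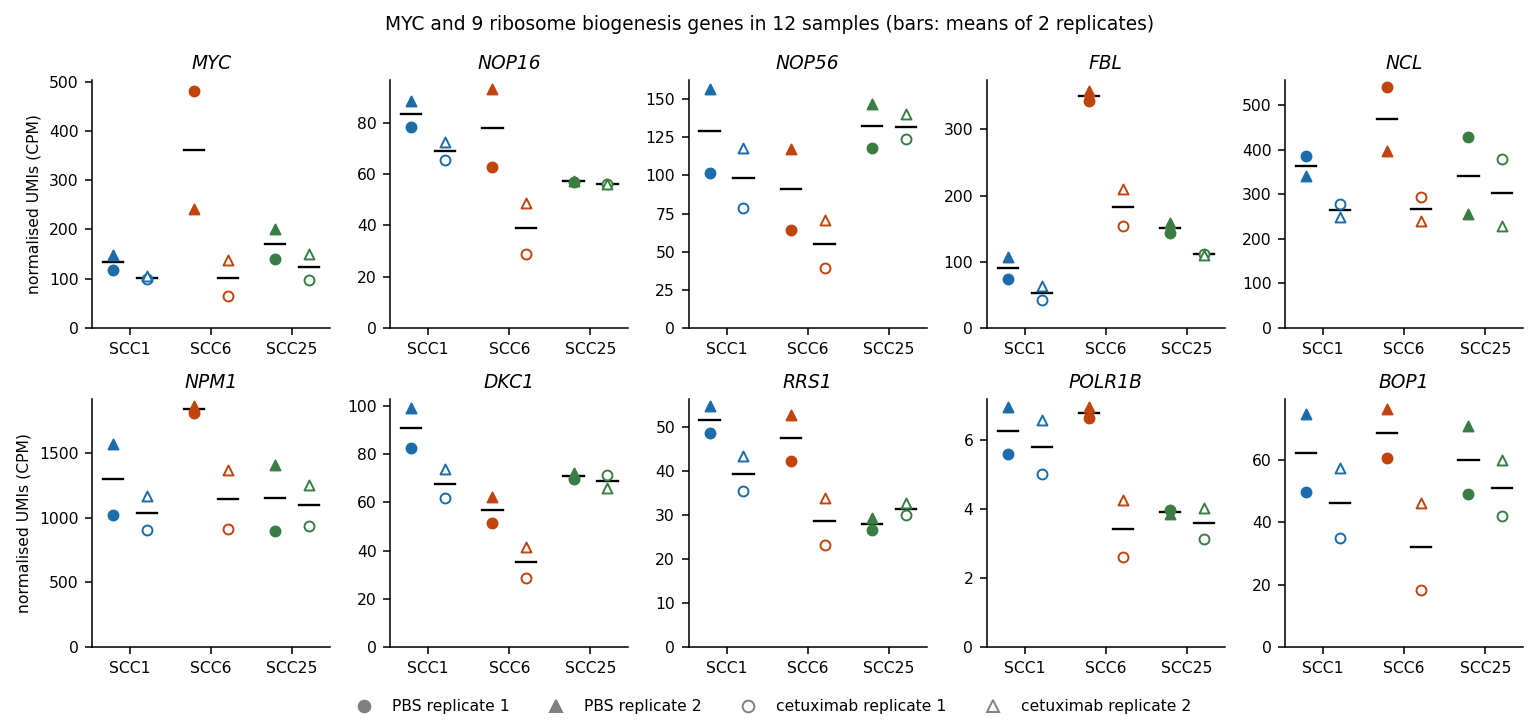
Normalised UMIs (CPM, linear axes from 0) of the 10 genes in the 12 samples, by line, with filled symbols for PBS, open symbols for cetuximab, circles for replicate 1, triangles for replicate 2 and bars for the means of 2 replicates. FBL separates the 3 untreated lines, MYC in SCC6 spans 482 to 242 CPM with PBS and 65.6 to 138 with cetuximab, and RRS1 in SCC25 is the only panel in which both cetuximab samples lie above both PBS samples.

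With cetuximab, MYC itself was lower in each line, and the difference passed the test in SCC6. In SCC6, MYC stood at 482 and 242 CPM with PBS and at 65.6 and 138 CPM with cetuximab. Both cetuximab samples lay below both PBS samples, and pair by pair (samples of equal replicate number) the level with cetuximab was 13.6% and 56.9% of that with PBS. The log2 fold change was −1.83 ± 0.42, a level 0.281 times that of PBS (edgeR, adjusted p = 0.0407). In SCC1 the values were 119 and 149 CPM with PBS and 98.6 and 106 with cetuximab (log2 −0.38 ± 0.40, adjusted p = 0.915). In SCC25 they were 141 and 202 CPM with PBS and 97.6 and 151 with cetuximab (log2 −0.46 ± 0.40, adjusted p = 1.00). The groups did not overlap in SCC1 and overlapped in SCC25. The SCC6 call was lost without PBS replicate 1 (log2 −1.26, adjusted p = 0.296) and without cetuximab replicate 1 (log2 −1.39, adjusted p = 0.277), the sample with the fewest UMIs per cell, and the adjusted p ranged from 0.000428 to 0.296 over 13 settings, 9 of which kept the call. Across the 3 lines MYC had a log2 fold change of −0.88 ± 0.29, which edgeR did not call (adjusted p = 0.109) and DESeq2 did (adjusted p = 0.0362).

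Of the snoRNP genes, FBL fell across the lines. In SCC1 it stood at 74.6 and 107 CPM with PBS and 42.6 and 64.1 with cetuximab. In SCC6 it stood at 342 and 358 CPM with PBS and 154 and 210 with cetuximab, and in SCC25 at 143 and 159 with PBS and 112 and 111 with cetuximab. Both cetuximab samples lay below both PBS samples in all 3 lines, and the level in the cetuximab sample was 45.1% to 77.8% of that in its pair. Across the lines the log2 fold change was −0.72 ± 0.15 (edgeR, adjusted p = 0.0243), the call of FBL alone among the 10 genes. It was lost with any 1 of 6 samples left out, namely PBS replicate 2 or cetuximab replicate 1 of SCC1 or any sample of SCC6 (adjusted p from 0.0512 to 0.0704), and kept with each of the other 6 left out.

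NOP56, the scaffold protein of the box C/D snoRNPs, ranged from 39.5 to 156 CPM, and DKC1 from 28.7 to 99.1 CPM. SCC1 had a NOP56 log2 fold change of −0.40 ± 0.37, SCC6 one of −0.72 ± 0.37 and SCC25 one of −0.01 ± 0.37. Those of DKC1 were −0.42 ± 0.22, −0.70 ± 0.22 and −0.04 ± 0.22 for these lines. None of the 6 values passed the edgeR test (adjusted p from 0.116 to 1.00). NOP56 overlapped between PBS and cetuximab in every line, with replicate 2 at 117 CPM and replicate 1 at 64.4 CPM in untreated SCC6, a gap wider than that between the treatments.

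NCL and NPM1 encode nucleolin and nucleophosmin, abundant nucleolar proteins that bind and chaperone ribosomal RNA and proteins. NCL stood in SCC1 cells at 387 and 342 CPM with PBS and 279 and 250 with cetuximab, and in SCC6 cells at 541 and 399 with PBS and 294 and 240 with cetuximab. In SCC25 it stood at 428 and 256 CPM with PBS and 379 and 229 with cetuximab. The groups did not overlap in SCC1 and SCC6 and overlapped in SCC25. The 2 SCC25 replicates differed from each other more than the treatments did, while the level with cetuximab was 88.6% and 89.4% of that with PBS within the pairs. The log2 fold changes of NCL were −0.46 ± 0.30, −0.82 ± 0.30 and −0.17 ± 0.30 in SCC1, SCC6 and SCC25 (adjusted p = 0.769, 0.169 and 1.00). NPM1 ranged from 900 to 1866 CPM and had log2 fold changes of −0.32 ± 0.30, −0.69 ± 0.31 and −0.08 ± 0.30, none of which passed the test. NPM1 has 50 pseudogenes named in RefSeq, so its reads may have been split or lost in counting and its levels are uncertain.

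The remaining 4 genes act in RNA polymerase I (POLR1B) and large subunit assembly (BOP1, NOP16 and RRS1), and without the block edgeR called none of them with cetuximab in any line. BOP1, a factor of large subunit RNA processing, stood in SCC6 at 60.6 and 76.3 CPM with PBS and 18.2 and 46.2 with cetuximab. Its log2 fold change there was −1.09 ± 0.43 (adjusted p = 0.195), against −0.43 ± 0.43 in SCC1 and −0.23 ± 0.43 in SCC25. NOP16, a nucleolar factor of the large subunit, stood in SCC6 at 62.6 and 93.3 CPM with PBS and 28.9 and 48.6 with cetuximab (log2 −1.01 ± 0.27, adjusted p = 0.0681). In SCC25 it stood at 56.9 and 57.3 CPM with PBS and 56.1 and 56.2 with cetuximab, a difference of −0.02 ± 0.27. POLR1B, the scarcest of the set with 203 to 664 UMIs per sample, had log2 fold changes of −0.11 ± 0.28 in SCC1, −0.98 ± 0.28 in SCC6 (adjusted p = 0.0825) and −0.13 ± 0.28 in SCC25. RRS1 stood at 48.8 and 54.8 CPM with PBS and 35.4 and 43.5 with cetuximab in SCC1, and at 42.3 and 52.9 with PBS and 23.2 and 34.0 with cetuximab in SCC6. In SCC25 it stood at 26.6 and 29.4 CPM with PBS and 30.1 and 32.7 with cetuximab. The direction in SCC25 was thus opposite to that in the other lines, with log2 fold changes of −0.39 ± 0.23, −0.73 ± 0.23 and 0.16 ± 0.23 in SCC1, SCC6 and SCC25, none of which edgeR called. BOP1, NOP16, RRS1 and POLR1B each overlap another annotated gene in RefSeq, and NOP56, NCL and DKC1 each overlap genes of small nucleolar RNAs. How reads in the overlaps were assigned is not given in the sources used here.

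**Figure D2:**
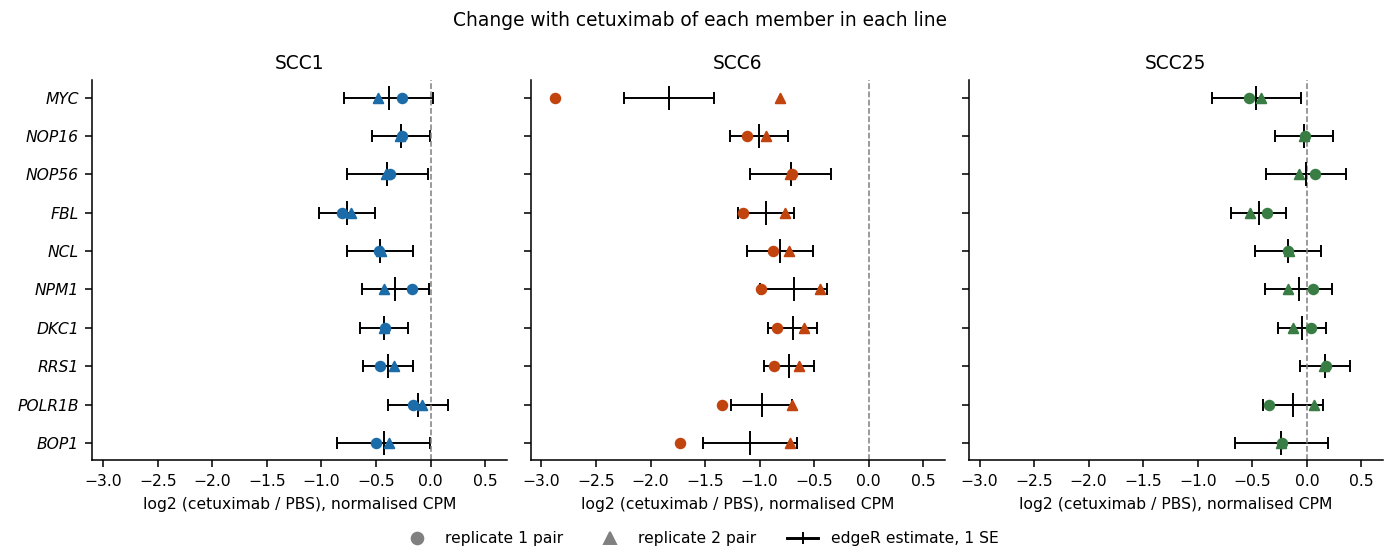
Log2 ratio of cetuximab to PBS (normalised CPM) for each of the 10 genes in SCC1, SCC6 and SCC25, with circles and triangles for the pairs of replicates 1 and 2 and black bars for the edgeR estimate with 1 standard error (2 samples per group). All 20 values lie below 0 in SCC1 and in SCC6, the MYC pairs of SCC6 are at −2.88 and −0.81, and in SCC25 14 of 20 lie below 0.

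Counted over genes and pairs, the level with cetuximab was below that with PBS in 54 of 60 cases, 20 of 20 in SCC1, 20 of 20 in SCC6 and 14 of 20 in SCC25. Over all genes tested the corresponding shares were 46.9%, 48.2% and 50.6%. The 10 genes were chosen with earlier results of these data known, and their levels are related across samples. The 60 cases are therefore not independent, and the counts here describe the set and carry no test of it. MYC, NOP16, FBL, NCL and BOP1 were lower in all 6 pairs, as were 10.6% of all genes. Both cetuximab samples lay below both PBS samples for 6 of the 10 genes in SCC1 (20.3% of all genes), 9 in SCC6 (21.4%) and 2, NOP16 and FBL, in SCC25 (15.3%). In UMIs per cell, not scaled to the total of the sample, 41 of 60 cases were lower, and in SCC25 5 of 20. The median SCC25 cell held 31947.5 and 40883.5 UMIs with PBS and 41348 and 47606 with cetuximab. FBL stood there at 4.96 and 6.35 UMIs per cell with PBS and 4.82 and 5.54 with cetuximab, and MYC at 4.87 and 8.06 with PBS and 4.21 and 7.54 with cetuximab. The remaining case was POLR1B in replicate 1.

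By the adjusted edgeR test, 0 of the 10 genes were called lower in SCC1 (0% of all genes), 1 in SCC6, MYC (1.3%), 0 in SCC25 (0%) and 1 across the lines, FBL (1.13%). At an unadjusted p under 0.05 the counts were 1 of 10 in SCC1 (FBL, against 3.67% of all genes), 9 in SCC6 (all but NOP56, against 8.64%), 0 in SCC25 (2.07%) and 6 across the lines (MYC, NOP16, FBL, NCL, DKC1 and BOP1, against 9.46%). DESeq2 called 6 genes lower in SCC6 (MYC, NOP16, FBL, DKC1, RRS1 and POLR1B, against 4.3% of all genes) and 2 across the lines (MYC and FBL, against 4.18%). It called 0 in SCC1 and in SCC25, where 0.465% and 0.114% of the genes with an adjusted p were called lower.

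Samples of equal replicate number were taken as pairs, which the labels do not state. A fit with the replicate number within each line as a block changed these counts. With the block, all 10 genes fell in SCC6 (10.1% of all genes were called lower), with log2 fold changes from −0.71 (DKC1 and NOP56) to −1.84 (MYC) and adjusted p from 0.00204 (NOP16) to 0.0173 (MYC). FBL fell in SCC1 (−0.77 ± 0.13, adjusted p = 0.0208, where 1.99% of all genes were called lower), and NCL was just outside (−0.46 ± 0.11, adjusted p = 0.0511). Across the lines FBL (−0.72 ± 0.10, adjusted p = 0.00894) and NCL (−0.48 ± 0.11, adjusted p = 0.0276) fell, against 5.55% of all genes. In SCC25, 0 of the 10 genes were called with the block, where 0.207% of all genes were called lower, and the smallest adjusted p was that of FBL (−0.44 ± 0.13, adjusted p = 0.178). Between replicates, NOP16, NOP56, NPM1, RRS1 and BOP1 were higher in replicate 2 than in replicate 1 in 6 of 6 groups, and NCL was lower in replicate 2 in 6 of 6.

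Whether the change differed between lines was tested with the interaction of line and treatment. None of the 10 genes was called by edgeR (0% of all genes), by DESeq2 (1.67% of the genes with an adjusted p) or with the block (1.29% of all genes). At an unadjusted p under 0.05 without the block 0 of 10 passed, against 7.36% of all genes. With the block the smallest adjusted p were 0.0583 for NOP16 and 0.0868 for RRS1. A difference between SCC6 and the other lines was therefore not shown for any of the 10 genes.

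At the level of single cells, cetuximab was accompanied by fewer MYC-positive cells. Each cell was thinned at random to 15000 UMIs to even out depth, and a cell with at least 1 MYC UMI counted as positive. This left out 851 shallower cells, unevenly over the samples. The loss was largest in cetuximab replicate 1 of SCC6 (262 of 2854 cells) and smallest in cetuximab replicate 2 of SCC6 (14 of 1653). In SCC6 the share was 87.3% and 86.0% with PBS and 55.4% and 75.1% with cetuximab. In SCC1 it was 75.3% and 80.1% with PBS and 70.5% and 72.2% with cetuximab, and in SCC25 72.3% and 81.0% with PBS and 61.4% and 77.2% with cetuximab. The share was lower with cetuximab in 6 of 6 pairs, and the groups overlapped in SCC25 only. The mean difference was −11.7 percentage points (exact permutation test within lines, two-sided, p = 0.0370, where the smallest p the design allows is 0.00926), and p = 0.0312 in the exact sign-flip test over the 6 pairs, the smallest that 6 pairs can give. Without thinning the difference was −5.82 points (exact permutation p = 0.278). The exact permutation test also lost its threshold without PBS replicate 1 of SCC6 (p = 0.102), PBS replicate 2 of SCC6 (p = 0.0926), PBS replicate 2 of SCC25 (p = 0.0833) or cetuximab replicate 1 of SCC25 (p = 0.0741). At most 0.320% of the cells of a sample were positive for PTPRC, CD3E or PECAM1, genes that these lines should lack.

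**Figure D3:**
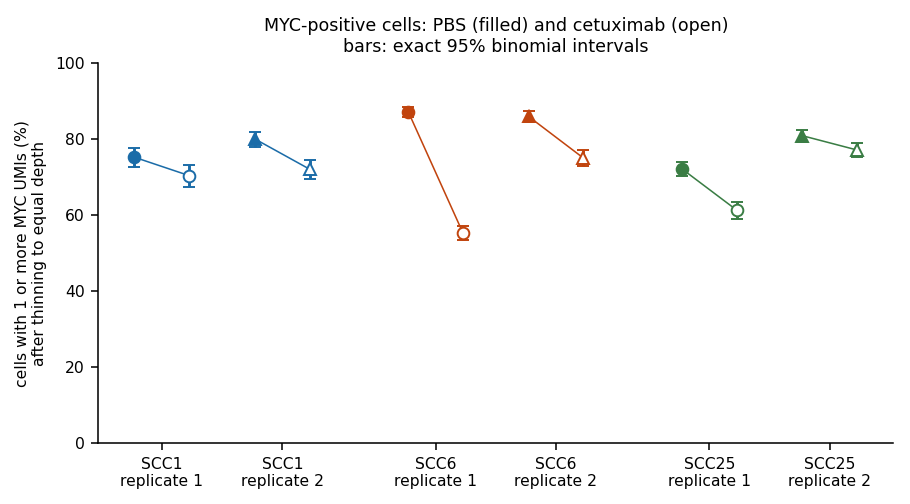
Share of cells with at least 1 MYC UMI (percent, axis from 0) after thinning each cell to 15000 UMIs, in PBS (filled) and cetuximab (open) samples joined by replicate number, with exact 95% binomial intervals that cover counting error only. Each of the 6 lines slopes down, from 87.3% to 55.4% in replicate 1 of SCC6 at the steepest.

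The upper end of the MYC distribution differed between samples as well. In PBS replicate 1 of SCC6 the median cell held 4 MYC UMIs after thinning and the richest 10% of cells held 14 or more, against a median of 3 and a richest 10% from 7 in PBS replicate 2. The ratio of variance to mean was 8.80 in PBS replicate 1 of SCC6 and 1.82 to 2.87 in the other 11 samples. By this ratio MYC was spread most unevenly over the cells of that sample. It also had the highest mean, 6.07 MYC UMIs per cell after thinning against 1.05 to 3.25 in the others, and the ratio was not adjusted for the mean. With cetuximab the median SCC6 cell held 1 and 2 MYC UMIs and the richest 10% began at 3 and 5. Within samples, the MYC count of a cell and the summed count of the 9 other genes were only weakly related. Pearson r ran from 0.027 to 0.188 over 938 to 2652 cells, a description of cells that share a library and were thinned to equal depth. NPM1 was the largest part of the sum, from 12.4 of 25.3 UMIs per cell in PBS replicate 1 of SCC25 to 20.1 of 30.2 in cetuximab replicate 2 of SCC6. The values therefore weigh the abundant genes most.

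The 9 other genes were mostly higher in cycling cells, and MYC mostly was not. The cells of each line were ordered by their summed UMIs of 40 S phase, G2 and mitosis genes after thinning. The cells with the fewest (up to 10 in SCC1, 15 in SCC6 and 6 in SCC25) and with the most (over 62, 61 and 39) were then compared within each sample. This cuts a continuous range, and 39 to 417 cells per sample lay within 1 UMI of the lower limit. NOP56, FBL, NCL, DKC1, POLR1B and BOP1 were higher in the most cycling cells in 12 of 12 samples, with median log2 ratios from 0.43 (POLR1B) to 0.94 (NOP56). NOP16 was higher in 11, and NPM1 and RRS1 in 10 of 12, all exceptions lying in SCC6. MYC was higher in the most cycling cells in 3 of 12 samples, all 3 of SCC25, with a median log2 ratio of −0.16. Across cells, the summed 9 genes (NPM1 the largest part) and the cell-cycle genes had Spearman rho from 0.111 to 0.523, lowest in the 4 SCC6 samples. MYC and the cell-cycle genes had Spearman rho from −0.145 to 0.135.

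**Figure D4:**
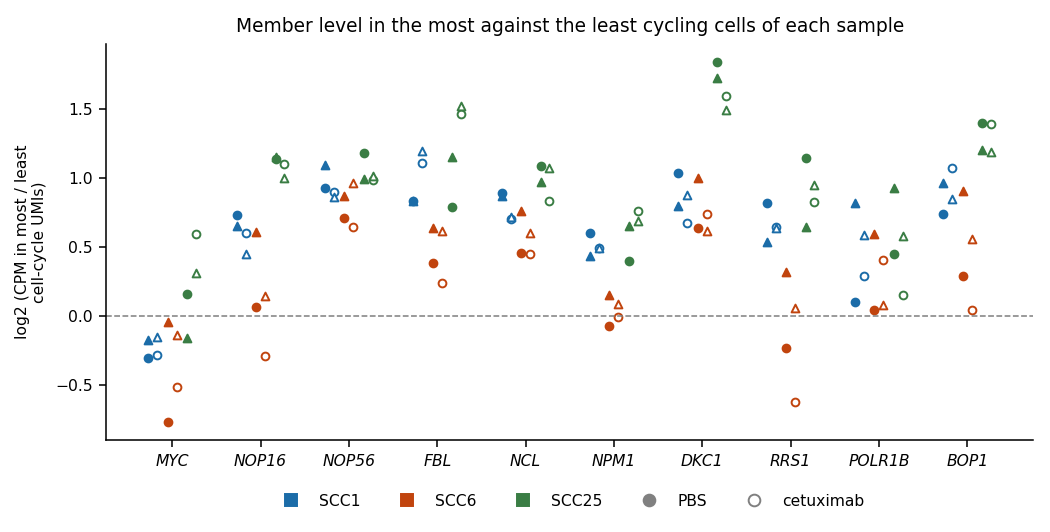
Log2 ratio of CPM in the cells with the most to those with the fewest cell-cycle UMIs for each gene in each of the 12 samples, by line (colour), treatment (filled for PBS, open for cetuximab) and replicate (circle 1, triangle 2). MYC lies at or under 0 outside SCC25, while DKC1 reaches 1.84 in SCC25.

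The mix of these cells differed between treatments, and sums over all cells cannot tell fewer cycling cells from less RNA of a gene per cell. The cells with the fewest cell-cycle UMIs made up 17.6% and 18.2% of SCC1 cells with PBS and 68.8% and 42.7% with cetuximab. They made up 29.1% and 18.6% with PBS and 50.04% and 37.0% with cetuximab in SCC6, and 14.9% and 30.6% with PBS and 38.1% and 55.2% with cetuximab in SCC25. In each of the 6 pairs the cetuximab sample had the larger share. Within the least cycling cells, the 10 genes were lower with cetuximab in 20 of 20 pairs in SCC6, 13 of 20 in SCC1 and 7 of 20 in SCC25. Within the most cycling cells they were lower in 20 of 20 pairs in SCC6, 19 of 20 in SCC1 and 7 of 20 in SCC25. The median log2 ratios were −0.48 and −0.68 in SCC6, −0.12 and −0.16 in SCC1, and 0.20 and 0.07 in SCC25. These ratios were scaled to the total of each class, without the normalisation factors used over all cells. They are therefore not on the same scale as the fold changes over all cells. The corresponding shares over all genes within the classes are not given here, so nothing about the set is read from these counts.

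MYC and FBL were lower with cetuximab in both pairs of every line within either class, and no other gene of the set was. In SCC25, NOP16, NOP56, DKC1 and RRS1 were lower in 0 pairs in either class, and NCL, NPM1, POLR1B and BOP1 in some pairs. The shares of all genes with such patterns within the classes are not given here. The pairs and overlaps below therefore only describe MYC and FBL. In the least cycling SCC6 cells, MYC stood at 487 and 212 CPM with PBS and 74.1 and 139 with cetuximab, and in the most cycling at 286 and 205 with PBS and 52.0 and 126 with cetuximab. Both cetuximab samples lay below both PBS samples in either class. Fitted on the least cycling cells alone, MYC in SCC6 had a log2 fold change of −1.96 (edgeR, adjusted p = 0.0605) and FBL across the lines of −0.71 (adjusted p = 0.00699), beside −0.72 over all cells. In SCC25, FBL stood at 87.7 and 78.1 CPM with PBS and 53.4 and 58.4 with cetuximab in the least cycling cells, and at 152 and 174 with PBS and 147 and 168 with cetuximab in the most cycling. The SCC25 groups did not overlap in the former and overlapped in the latter.

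The wider machinery of ribosome biogenesis was summarised with lists of known genes, by their counts and medians. These lists too were chosen with earlier results of these data known. Of all 17897 genes, 8681 had a negative fold change in SCC6 and 9109 in SCC25, and 8822 had one across the lines. By edgeR without the block, 1.3% of all genes were called lower in SCC6 and 1.13% across the lines. Of 13 snoRNP proteins, 12 had a negative fold change in SCC6 (median log2 −0.64), and 2 fell, the box C/D protein SNU13 (−0.76 ± 0.17, adjusted p = 0.0399) and the snoRNP chaperone NOLC1 (−1.01 ± 0.21, adjusted p = 0.0303). Across the lines FBL alone of this list fell, and NHP2, the H/ACA core protein next to it by p, had −0.36 ± 0.10 (adjusted p = 0.0679). Of 15 RNA polymerase I genes 0 were called in SCC6 by edgeR (median −0.44). POLR1E, a subunit of the enzyme, fell across the lines (−0.59 ± 0.15, adjusted p = 0.0485), and the subunit gene ZNRD1 had −0.41 ± 0.11 (adjusted p = 0.0676).

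Of 40 genes of the small subunit processome, the particle that assembles on the early transcript, 39 were negative in SCC6 (median −0.52) and 2 fell, IMP4 (−0.95 ± 0.19, adjusted p = 0.0244) and WDR3 (−0.84 ± 0.19, adjusted p = 0.0398). NAT10, an RNA acetyltransferase of the same list, had −0.80 ± 0.23 (adjusted p = 0.0821). Of 52 large subunit assembly genes, 51 were negative in SCC6 (median −0.56) and 3 fell, LYAR (−1.41 ± 0.26, adjusted p = 0.0186), NLE1 (−1.08 ± 0.24, adjusted p = 0.0403) and PPAN (−1.15 ± 0.26, adjusted p = 0.0372). Of 6 abundant nucleolar chaperones and helicases, NPM3, a relative of NPM1, fell in SCC6 (−0.89 ± 0.18, adjusted p = 0.0261) and across the lines (−0.60 ± 0.11, adjusted p = 0.0166), and TCOF1, which recruits RNA polymerase I, fell across the lines (−0.62 ± 0.15, adjusted p = 0.0432). Beside these calls, 1.3% of all genes fell in SCC6 and 1.13% across the lines. SNU13, NOLC1, WDR3 and PPAN are named here because their lists held few calls, after their values were seen.

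With the block the SCC6 counts of genes that fell were 11 of 13, 7 of 15, 25 of 40, 33 of 52 and 6 of 6 for these 5 lists, and none rose, where 10.1% of all genes fell. FBL, NOP56, DKC1, POLR1B, BOP1, NOP16, RRS1, NCL and NPM1 are themselves in these lists and in their counts. In SCC25 the medians of the 5 lists were −0.09, −0.06, −0.01, −0.05 and −0.25, in SCC1 −0.31, −0.16, −0.18, −0.22 and −0.37, and 0 genes of any were called in either line by edgeR without the block. The median over all genes was 0.00 in SCC1 and in SCC6 and −0.01 in SCC25.

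Of 32 MYC targets outside the ribosome 29 had a negative fold change in SCC6 (median −0.56) and 24 in SCC25 (median −0.12). In SCC6 0 of them were called without the block and 17 were called lower with it, against 10.1% of all genes. PHB2, a mitochondrial prohibitin, had −0.41 ± 0.12 across the lines (adjusted p = 0.0848, and 0.0276 with the block), and the replication helicase gene MCM4 had −0.48 ± 0.15 (adjusted p = 0.0849, and 0.0197 with the block). Of 10 genes that MYC is known to repress, 5 had a positive and 5 a negative fold change across the lines (median 0.16), and in SCC6 3 were positive and 7 negative (median −0.07). CDKN2B, which encodes the CDK4 and CDK6 inhibitor p15, rose across the lines (1.76 ± 0.35, adjusted p = 0.02004). It stood at 23.1 and 17.6 CPM with PBS and 125 and 64.6 with cetuximab in SCC1, and at 19.6 and 43.8 with PBS and 55.4 and 109 with cetuximab in SCC25. In SCC6, where MYC itself fell, CDKN2B was at 0 in 3 of 4 samples. CDKN1A, the gene of the inhibitor p21, rose across the lines by 0.69 ± 0.14 (adjusted p = 0.0243). The other calls of this list were in SCC6, where CDKN1C rose (1.45 ± 0.29, adjusted p = 0.0263) and CEBPD fell (−1.60 ± 0.35, adjusted p = 0.0365), both named after their values were seen. Of all 17897 genes, 453 rose across the lines, and 449 rose and 233 fell in SCC6.

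Of 13 partners and antagonists of MYC, 0 were called without the block in any line or across the lines by edgeR. MXD4, which competes with MYC for MAX, had 0.52 ± 0.14 across the lines (adjusted p = 0.0669, and 0.0426 with the block), and the MYC-binding protein gene MYCBP had −0.29 ± 0.10 (adjusted p = 0.123, and 0.0484 with the block). With the block 3 genes of this list rose in SCC6 (MYCL, MXD4 and MLXIP) and 5 fell (MXD1, MXI1, MNT, MLX and MYCBP), where 20.1% of all genes were called in either direction. Those not named above were named after their values were seen. Beside these groups stood the cell-cycle lists, with all 20 S phase and all 20 G2 and mitosis genes negative in each line, with S phase medians of −0.75, −0.33 and −0.31 and G2 and mitosis medians of −1.12, −0.49 and −0.48 for SCC1, SCC6 and SCC25. The order of the lines therefore differed: the cell-cycle medians were lowest in SCC1, and the ribosome biogenesis medians in SCC6, a comparison of medians that was not tested. BUB1 (−0.83 ± 0.19, adjusted p = 0.0379) and TPX2 (−0.67 ± 0.17, adjusted p = 0.0474), both genes of mitosis, fell across the lines, as did 1.13% of all genes.

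**Figure D5:**
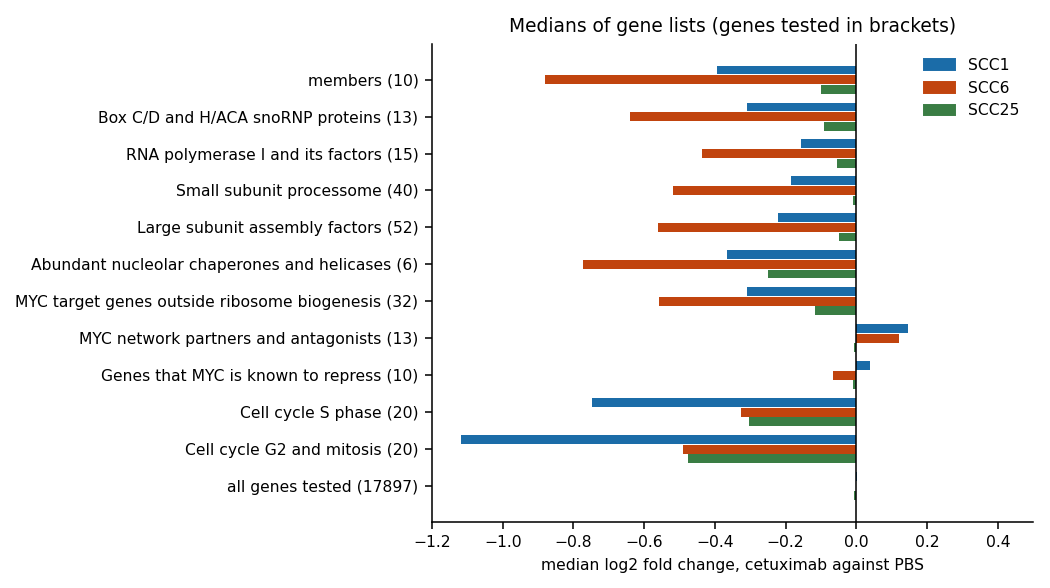
Median log2 fold change with cetuximab in SCC1, SCC6 and SCC25 for the 10 genes, for lists of related genes and for all 17897 genes tested (bars from 0, genes tested in brackets). The ribosome biogenesis lists reach their lowest medians in SCC6 (−0.44 to −0.77) and the cell-cycle lists in SCC1 (−0.75 and −1.12), while the median of all genes lies within 0.01 of 0.

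Levels across the 12 samples, as log2 CPM with the mean of each line removed, showed how alike the 10 genes were. DKC1 and RRS1 were the closest pair (Pearson r = 0.958), the median r of a gene with the 9 others was 0.755 for MYC and 0.824 to 0.907 for 8 others, and NCL stood apart with a median of 0.393 and a highest r of 0.533, with FBL. Among 2716 other genes with a mean of at least 50 CPM, those closest to MYC were VAPA (r = 0.969), MRPS35 (0.953), PTPN2 (0.950), C12orf10 (0.945) and CEBPB (0.944). Those closest to the mean of the 9 others were MRPL4 (r = 0.986), DNAJC2 (0.979), DDX27 (0.978), TOMM40 (0.973) and C1QBP (0.971), of which DDX27 is in the large subunit list and TOMM40 and C1QBP are in that of MYC targets. Replicate number was not removed. NCL was higher in replicate 2 in 0 of 6 groups, and NOP16, NOP56, NPM1, RRS1 and BOP1 in 6 of 6. The part of replicate number in the r of NCL was not tested. The samples share their lines, treatments, replicate numbers and library depth, so these values describe likeness over 12 samples and carry no test.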

How the data were processed

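Libraries were made with the droplet-based 3′ chemistry of 10x Genomics. Per the labels, reads were processed with Cell Ranger on GRCh38 (version not given in the sources used here), and the deposited tables hold raw UMI counts per gene and cell, 1 table per line, from cells that the authors had pre-processed with Monocle 3. The submitters' cell table gave the sample of each cell. Counts of symbols listed more than once were added, and no per-sample column was left unused. No further cell filter or doublet removal was applied in the main analysis.

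UMIs were summed per sample, normalised with TMM and tested with edgeR 4.0.16 (quasi-likelihood F-test, limma 3.58.1, R 4.3.3) after its low-count filter, with 1 mean for each of the 6 groups, or line plus treatment for the mean effect. P-values were adjusted by Benjamini-Hochberg over 17897 genes, with a threshold of 0.05. CPM values carry the TMM factors, except those of cell-cycle classes, which use the total of the class. The SE was the log2 fold change divided by the square root of F. DESeq2 1.42.0 was an alternative. Cells were thinned in Python 3 with a fixed seed. The scripts were tested on simulated counts. Depth, as total UMIs per sample, limited POLR1B most. Intervals on shares were exact (Clopper-Pearson, 95%) and cover counting error only.

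The 10 genes and the lists were chosen with earlier results of these data known. Named genes were the 10, the 2 genes of each list with the smallest p across the lines, and the 5 most alike; exceptions are marked. Deviations of PBS and cetuximab samples of equal number from their group means correlated over 7558 genes (r = 0.676 in SCC1, 0.630 in SCC6 and 0.722 in SCC25), so the replicate numbers were taken to pair the samples; where the pairing comes from is not given. Alternatives changed the test, size factors, low-count filter, replicate block, replicates, genes in the library size and cells.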

Additional observations from a re-analysis of the deposited data

Results flagged for a closer look

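RRS1 was singled out because its change with cetuximab ran in opposite directions in SCC25 and in the other lines. The 2 SCC1 pairs had log2 ratios of cetuximab to PBS of −0.462 and −0.331, the SCC6 pairs of −0.865 and −0.636, and the SCC25 pairs of 0.174 and 0.156. The difference between lines was tested with the interaction of line and treatment and was not called by edgeR (adjusted p = 0.691), nor with the replicate block (adjusted p = 0.0868). Taken as UMIs per cell, the SCC1 pairs had −0.20 and −0.18, the SCC6 pairs −1.04 and −0.07, and the SCC25 pairs 0.49 and 0.48.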

How the results depend on the processing

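The fold changes kept their direction and side of the threshold in 821 values under alternative settings, lost the call in 30, gained it in 31 and reversed in 38; the cause was not tested. Shares of all genes called in either direction under the same setting stand in brackets. Of the 10 genes, 1 was called in SCC6 by edgeR (3.81%), 6 by DESeq2 (9.91% of those with an adjusted p), 3 without the low-count filter (4.76%), 10 with the replicate block (20.1%), 0 in the least cycling cells (2.5%), 0 when the 4 samples of the line were fitted alone (1.66%), and 0 to 2 with 1 sample left out (0.0593% to 4.03%). With the block 1 gene was called in SCC1 (4.45%). Across the lines 1 was called (3.67%), and 2 by DESeq2 (10.1%), 2 without the filter (4.03%), 2 with the block (11.6%) and 0 to 1 with 1 sample left out (1.09% to 3.21%). Between untreated lines, leaving out 1 sample gave 1 to 2 calls for SCC6 against SCC1 (25.6% to 32.9%), 0 to 1 for SCC25 against SCC1 (25.3% to 31.5%) and 1 to 2 for SCC25 against SCC6 (28.6% to 34%). In the least cycling cells SCC25 had 5 calls against SCC1 (35.8%) and 5 against SCC6 (38.9%), and without the filter 5 against SCC6 (29.6%). The MYC-positive share differed by −5.82 points without thinning, and by −15.0 to −8.43 with 1 sample left out. Over all genes, edgeR called 449 higher and 233 lower in SCC6, and 1779 and 1810 with the block. Across the lines the counts were 453 and 203, and 1079 and 994 with the block. In SCC1 they were 3 and 0, then 440 and 357, and in SCC25 0 and 0, then 138 and 37.

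Reversed signs, none of them a call, were these. In the least cycling cells SCC1 had log2 fold changes of 0.08993 (NOP16), 0.04934 (NOP56) and 0.01302 (POLR1B), and SCC25 of 0.29 (NOP16), 0.25 (NOP56), 0.03134 (NCL), 0.31 (DKC1) and 0.33 (POLR1B). Between untreated lines in these cells, NOP16 and RRS1 in SCC6 over SCC1 were at 0.06659 and 0.25, and DKC1 in SCC25 over SCC6 at −0.19. With the block NOP56 in SCC25 was at 0.0002688. With 1 sample left out, SCC1 spanned −0.61 to 0.02122 for NPM1 and −0.32 to 0.05785 for POLR1B. SCC25 spanned −0.16 to 0.16 for NOP56, −0.57 to 0.24 for NCL, −0.36 to 0.28 for NPM1, −0.08705 to 0.009093 for DKC1, −0.32 to 0.05788 for POLR1B and −0.52 to 0.05762 for BOP1. Untreated SCC6 over SCC1 spanned −0.41 to 0.16 for NOP16, −0.29 to 0.02949 for RRS1, −0.0382 to 0.28 for POLR1B and −0.13 to 0.46 for BOP1. Untreated SCC25 over SCC1 spanned −0.25 to 0.38 for NOP56, −0.51 to 0.23 for NCL, −0.53 to 0.18 for NPM1 and −0.35 to 0.27 for BOP1, and SCC25 over SCC6 −0.49 to 0.04521 for BOP1.

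A lone sample of a group was assumed to vary like the other groups. Depth limits POLR1B most, with 203 UMIs in 1 sample.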
